A study of Mus musculus with 6 samples.

Results

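Calu and Ccdc136 lie on either side of Opn1sw, the gene of the short-wavelength cone opsin, on mouse chromosome 6, and are 2 of the 9720 genes with a deposited level. They were chosen by symbol, with earlier results of these data in view: their levels in the knockout against the control libraries, and how these levels went with that of Opn1sw. Those values are therefore given as a description, with no test. Poly(A) RNA was sequenced from cone photoreceptors that fluoresced through the Z/EG reporter and were sorted by FACS from dissociated neural retinas of adult mice. The Bmal1 knockout group (HRGPcre;Bmal1f/f;Z/EG, 3 libraries) carried 2 floxed copies of Bmal1, and the control group (HRGPcre;Bmal1f/+;Z/EG, 3 libraries) carried 1, so that control cones are heterozygous after recombination. Both groups carried the Cre transgene HRGPcre, which is driven by a human red/green pigment promoter active in cones, and both had a mixed C57BL/6 background. Their age was labelled as postnatal day 60 to 80 and also as 2 to 6 months, and their days had 12 h light and 12 h dark. The labels give neither the time of day of collection nor the number of animals per library, so that the spread between libraries may be in part technical.

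Calu encodes calumenin, a calcium-binding protein of the secretory pathway with several EF-hand motifs, a member of the CREC family that also holds the reticulocalbins and Cab45. Calumenin is known to inhibit the vitamin K-dependent gamma-carboxylation of proteins and to act on calcium release and uptake by the endoplasmic reticulum. Ccdc136 encodes a coiled-coil protein that is needed for the formation of the sperm acrosome in mice. Opn1sw encodes the short-wavelength cone opsin, the pigment that most mouse cones make together with the medium-wavelength opsin of Opn1mw, in proportions that change from the dorsal to the ventral retina.

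The 3 genes sit side by side, and the members differ in how they face the opsin gene. In GENCODE vM21 (GRCm38, the assembly also called mm10), Calu (ENSMUSG00000029767.16) spans chromosome 6 from 29348069 to 29377110 on the plus strand and Opn1sw (ENSMUSG00000058831.13) spans 29376671 to 29388468 on the minus strand. Ccdc136 (ENSMUSG00000029769.16) spans 29396309 to 29426994 on the plus strand. Calu and Opn1sw thus run towards each other and meet at their 3′ ends, whereas Opn1sw and Ccdc136 run apart from start sites that lie 16.1 kb from each other in RefSeq. The RefSeq start sites of Calu and Opn1sw are 32.4 kb apart. In GENCODE the Opn1sw span reaches further, to the start of transcript Opn1sw-204, and 7840 bases lie between that span and Ccdc136.

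The exons of Calu and Opn1sw share 397 bases on opposite strands, all of them inside the 3′ UTR of transcript Opn1sw-201 (29376671 to 29377944). They make up 8.51% of the exon bases of Calu and 15.53% of those of Opn1sw. Of the 9 annotated Calu transcripts, 3 contribute. Calu-201 shares 5 bases, Calu-206 shares 2 bases, and Calu-205 shares its whole last exon of 392 bases (29376719 to 29377110). Without strand, fragments of the opsin 3′ UTR and of that Calu exon cannot be told apart. The library kit kept the strand, but the sources used here do not state whether counting made use of it, so the level of Calu is uncertain. The limit is wider than the share of bases, because Opn1sw was far more abundant. Spread over the exon bases of Calu, 397 bases covered evenly at the Opn1sw level would come to 151, 168 and 178 FPKM in knockout libraries 1, 2 and 3 and to 62.6, 85.6 and 102 FPKM in control libraries 1, 2 and 3. Those amounts equal 35.7% to 63.1% of the Calu FPKM of the knockout libraries and 66.6% to 78.3% of that of the control libraries. None of this was subtracted from the levels given. Ccdc136 shares no exon base with Opn1sw.

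**Figure D1:**
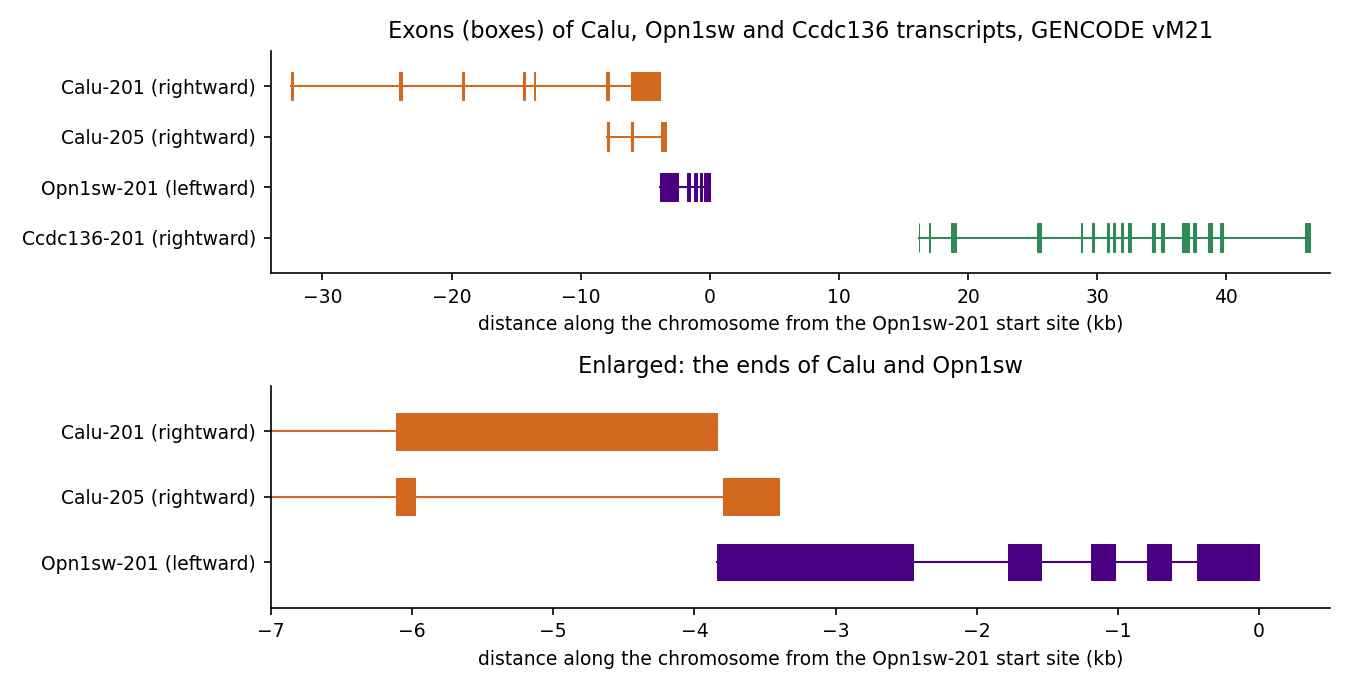
Exons (boxes) of selected GENCODE vM21 transcripts of Calu (orange), Opn1sw (purple) and Ccdc136 (green), plotted by distance in kb along the chromosome from the start site of Opn1sw-201. The lower panel enlarges the ends of Calu and Opn1sw, where the last exon of Calu-205 lies within the last exon of Opn1sw-201 on the other strand.

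The promoter windows of the 3 genes are printed because the levels of the genes moved together while the Opn1sw window differs in base composition from the printed windows of Calu and Ccdc136. Each window holds 250 bases before the RefSeq start site and 50 after it (RefSeq, GRCm38.p6), written along the strand of its gene. Capitals mark AGGTCA on either strand, the motif bound by the ROR and REV-ERB nuclear receptors, to which ROR beta, a known activator of the S opsin gene, belongs. The windows are chr6:29347856-29348155 (plus strand) for Calu, chr6:29396325-29396624 (plus strand) for Ccdc136 and chr6:29380464-29380763 (minus strand) for Opn1sw.
Calu: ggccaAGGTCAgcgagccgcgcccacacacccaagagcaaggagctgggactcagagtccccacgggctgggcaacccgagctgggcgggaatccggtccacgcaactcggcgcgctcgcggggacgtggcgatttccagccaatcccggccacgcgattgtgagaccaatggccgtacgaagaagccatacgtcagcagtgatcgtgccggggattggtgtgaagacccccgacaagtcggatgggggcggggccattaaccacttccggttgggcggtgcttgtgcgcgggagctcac
Ccdc136: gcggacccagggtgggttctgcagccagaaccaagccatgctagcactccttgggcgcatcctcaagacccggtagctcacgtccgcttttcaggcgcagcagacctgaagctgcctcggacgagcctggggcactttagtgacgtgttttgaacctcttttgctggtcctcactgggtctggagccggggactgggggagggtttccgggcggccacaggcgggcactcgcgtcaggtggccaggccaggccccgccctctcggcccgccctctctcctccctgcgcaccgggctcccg
Opn1sw: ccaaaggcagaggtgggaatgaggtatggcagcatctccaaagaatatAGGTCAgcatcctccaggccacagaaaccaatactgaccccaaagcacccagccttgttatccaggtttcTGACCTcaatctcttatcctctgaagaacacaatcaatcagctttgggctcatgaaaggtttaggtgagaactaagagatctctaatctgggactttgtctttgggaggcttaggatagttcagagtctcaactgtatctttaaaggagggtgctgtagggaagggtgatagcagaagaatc

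The windows of Calu and Ccdc136 held 66.0% and 67.3% G and C, that of Opn1sw held 46.0%, and the median over 32851 promoter windows of the genome was 52.7%. AGGTCA occurred 1 time in the Calu window, 2 times in the Opn1sw window and 0 times in the Ccdc136 window. Of all windows, 16.3% held it. The BMAL1 motif CACGTG (the E-box, in 7.15% of all windows), the CRX motif TAATCC (in 7.06%) and the D-box TTACGTAA (in 0.119%) were searched on both strands and matched none of the 3 windows. RefSeq lists 3 more windows for Ccdc136, of which 2 overlap the printed one and 1 starts at 29398676, and none of them held any of the 4 motifs. The overlapping windows held 67.3% and 67.7% G and C. The window that starts at 29398676 held 42.7%, below that of Opn1sw, so the high share of the printed window does not hold for every Ccdc136 start site.

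Arntl, the Bmal1 gene itself, had 3.37, 2.28 and 3.48 FPKM in knockout cones and 3.0, 2.60 and 3.27 FPKM in control cones, counted over the whole gene. The floxed exons are not named in the labels, so this level checks no genotype. Control 1 stood apart by the lowest mean correlation with the other libraries across genes (0.899, against 0.929 to 0.945 for the other 5).

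Calu was higher in the knockout libraries. It had 424, 432 and 282 FPKM (fragments per kilobase of transcript, adjusted for the size of each library) in knockout cones, against 91.6, 109 and 154 FPKM in control cones. All 3 knockout values lay above all 3 control values, and knockout 3 lay below the other knockout libraries. The means were 379 ± 84.2 FPKM in knockout and 118 ± 31.9 FPKM in control (SD, n = 3 each), a ratio of 3.21. On the scale of log2(FPKM + 1) the difference was 1.68 ± 0.30 (SE). Of the 8627 genes that averaged 1 FPKM or more, 6, Calu included, had a difference at least as high, with negative differences not counted. Calu was chosen from this contrast, so nothing is read from that number. The transcript ranked between 19th and 34th of 9720 genes in the knockout libraries and between 73rd and 95th in the control libraries.

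Ccdc136 was also higher in the knockout libraries, by a smaller ratio. It had 524, 328 and 322 FPKM in knockout cones, against 154, 222 and 255 FPKM in control cones. Again the groups did not overlap, and knockout 1 stood above the other knockout libraries. The means were 391 ± 115 FPKM in knockout and 210 ± 51.4 FPKM in control (SD, n = 3 each), a ratio of 1.86 and a log2 difference of 0.88 ± 0.31 (SE). A difference at least as high was found for 37 of the 8627 genes, Ccdc136 included. It ranked between 13th and 27th in the knockout libraries and between 34th and 40th in the control libraries. For both members, 2 of 2, the knockout values lay wholly above the control values. Over all 8627 genes this held for 3.52%, and since the members were chosen from this contrast nothing is read from their count. In sorted bulk samples, more cells of one kind and more RNA per cell cannot be told apart.

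The opsin gene between them measured 1774, 1977 and 2091 FPKM in knockout cones and 735, 1005 and 1202 FPKM in control cones (log2 difference 1.01 ± 0.32, SE), so its groups did not overlap either. Opn1mw measured 697, 815 and 722 FPKM in knockout cones and 661, 1471 and 1144 FPKM in control cones, with overlapping groups. The ratio of Opn1sw to Opn1mw FPKM was 2.54, 2.43 and 2.90 in knockout and 1.11, 0.683 and 1.05 in control. All 3 knockout ratios exceeded the control ratios.

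**Figure D2:**
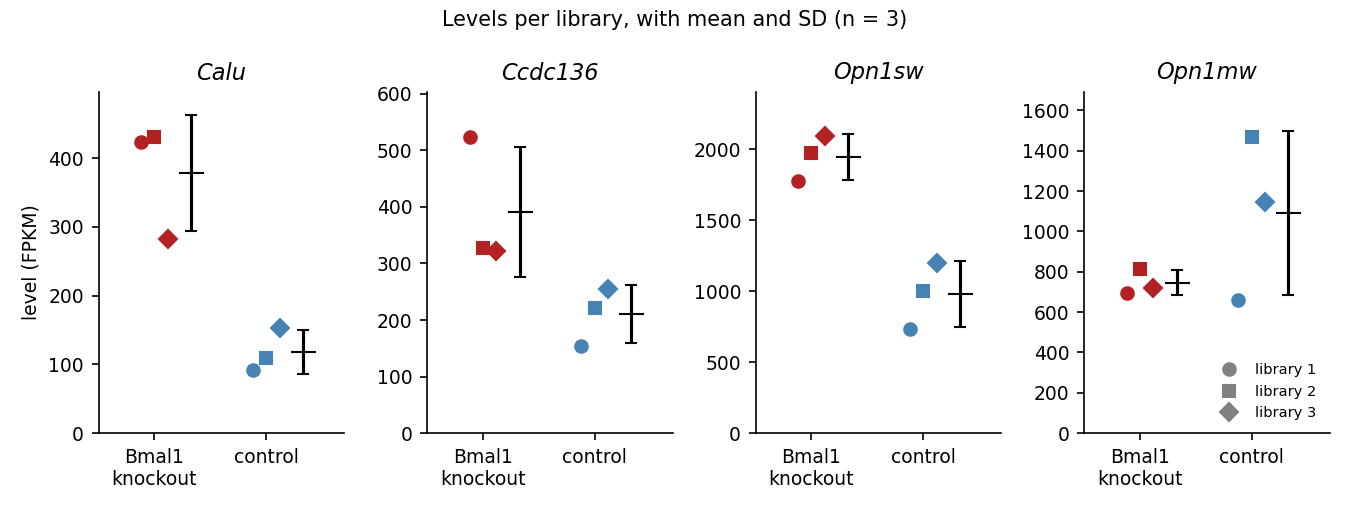
Levels (FPKM, linear axes from 0) of Calu, Ccdc136, Opn1sw and Opn1mw in each library, knockout in red and control in blue, with symbols for the library number and a bar for mean ± SD (n = 3). The groups are apart for Calu, Ccdc136 and Opn1sw and overlap for Opn1mw, whose lowest value is control 1 (661 FPKM).

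The levels were also expressed as shares of the Opn1sw level in the same library, which removes any factor common to the whole library. Ccdc136 stood at 29.6%, 16.6% and 15.4% of Opn1sw in knockout cones and at 21.02%, 22.04% and 21.2% in control cones. The control shares lay within a narrow band (21.4 ± 0.54%, SD, n = 3), and the knockout shares lay on both sides of it (20.5 ± 7.86%). Calu stood at 23.9%, 21.8% and 13.5% of Opn1sw in knockout cones and at 12.5%, 10.9% and 12.8% in control cones. Its knockout shares (19.7 ± 5.51%) were all above its control shares (12.04 ± 1.01%), knockout 3 by the least. Between the members, the ratio of Calu to Ccdc136 was 0.808, 1.32 and 0.876 in knockout and 0.593, 0.494 and 0.602 in control, again without overlap. The gene downstream of the opsin gene thus differed more between the groups than the gene upstream of it, in every pairing of a knockout with a control library.

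Over the 6 libraries, log2(FPKM + 1) of Calu and Opn1sw had a Pearson r of 0.93 and a Spearman rho of 0.83. For Ccdc136 and Opn1sw r was 0.85 and rho 0.77, and for Calu and Ccdc136 r was 0.90 and rho 0.94. If the 397 shared bases were counted without strand, the level of Calu would hold opsin fragments, and their part in the values that set Calu against Opn1sw (the shares, these r and the rank among overlapping pairs) was not tested. The libraries form 2 groups and share their scaling factor across genes, so these values are descriptions. They contain the difference between the groups, and for deviations from the group means r was 0.50, 0.42 and 0.70 for the 3 pairs in the same order. Without the 2 libraries farthest from the median level of Opn1sw (controls 1 and 2), r with Opn1sw was 0.80 for Calu and 0.44 for Ccdc136 over 4 libraries. Leaving out control 1 alone, r of Ccdc136 with Opn1sw was 0.68. The r of the deviations with Opn1sw was then 0.01 for Calu and -0.45 for Ccdc136, and without control 3 it was -0.02 for Calu, so the within-group values with Opn1sw rest on single libraries. That of Calu with Ccdc136 ranged from 0.54 to 0.94 with each library left out and from 0.52 to 0.59 under other scalings.

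Within the control group all 3 genes were lowest in control 1 and highest in control 3, and so were the FPKM sums of the libraries (84995, 106807 and 128773 for controls 1, 2 and 3). The knockout sums were closer together, from 102059 to 106901 FPKM. As shares of the library sum, the control values came to 0.108%, 0.102% and 0.119% for Calu and to 0.182%, 0.207% and 0.198% for Ccdc136. The coefficient of variation over control libraries was 27.02% for Calu and 24.4% for Ccdc136 in FPKM, and 7.87% and 6.66% as shares of the sum. The sums include Gm17364, a gene model that held 0.503%, 2.45% and 10.03% of the sums of controls 1, 2 and 3. It lowers the shares of control 3 the most, and the coefficients of variation without it were not computed. In knockout libraries the shares of the sum were 0.415%, 0.422% and 0.264% for Calu and 0.514%, 0.321% and 0.301% for Ccdc136, and the coefficients of variation, 24.4% and 31.1%, were not lower than those of the FPKM (22.2% and 29.4%). With each library scaled to the same sum, r of the deviations with Opn1sw was -0.41 for Calu and -0.66 for Ccdc136, so the within-group covariation with Opn1sw had the opposite sign under that scaling.

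**Figure D3:**
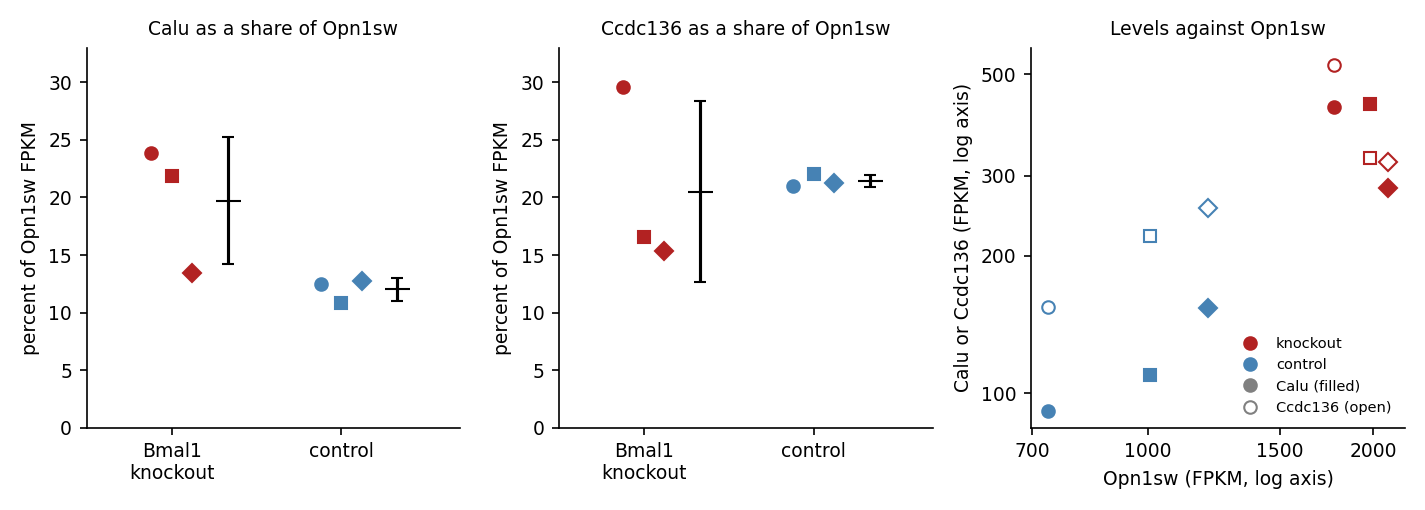
Left and middle, Calu and Ccdc136 as a percent of the Opn1sw FPKM of the same library, with mean ± SD (n = 3), knockout in red and control in blue. Right, Calu (filled) and Ccdc136 (open) against Opn1sw per library on log axes. The control shares of Ccdc136 lie between 21.02% and 22.04%, and its knockout shares between 15.4% and 29.6%.

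Against all genes, the likeness to Opn1sw was high without being the highest. Of 8626 other genes, Opn1sw ranked 50th by r with Calu and 279th by r with Ccdc136, and 109 and 132 genes had an r above 0.90 with Calu and with Ccdc136. Calu ranked 120th for Ccdc136. The choice of the members used their covariation with Opn1sw, so the ranks of Opn1sw are descriptions only. The 5 genes most like Calu over the 6 libraries were Zfp804a (r = 0.995), Plcz1 (0.989), Lrrc1 (0.984), Maml2 (0.982) and Syne1 (0.982). They measured between 2.51 and 16.99 FPKM on average in knockout and between 1.53 and 8.03 FPKM in control, far below Calu. The 5 most like Ccdc136 were Gm14305 (r = 0.996), Pbdc1 (0.994), Zswim5 (0.988), Rapgef4 (0.985) and Ankrd49 (0.983), between 1.20 and 9.33 FPKM in knockout and between 0.823 and 5.18 FPKM in control. Plcz1 is the only one of these 10 genes on chromosome 6.

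Wider sets of gene pairs gave a range for comparison. The overlapping pairs were not limited to genes that meet at their 3′ ends, and the adjacent pairs had any orientation and distance. In 615 pairs of tested genes whose exons overlap on opposite strands, r over the 6 libraries had a median of 0.23 and quartiles of -0.14 and 0.57, and the pair of Calu and Opn1sw ranked 8th. By the level of its more abundant gene the same pair ranked 2nd. In 7992 pairs of consecutive tested genes without overlapping exons, whatever lay between them, the median was 0.22 and the quartiles were -0.20 and 0.57. The pair of Ccdc136 and Opn1sw (0.85) ranked 434th. The choice of the members used these r, which also contain the difference between the groups, so nothing is read from the ranks by r.

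The other genes around the opsin locus were tested, since the choice of the members did not use them. The table holds 17 of the 27 other protein-coding genes annotated within 1 Mb of Opn1sw, and 16 were tested with limma over all genes. None passed an adjusted p of 0.05, against 0.104% of all tested genes (9 of 8627), and 1 had an unadjusted p under 0.05. Their log2 differences ran from -0.67 to 0.47 with a median of -0.15, where the median over all tested genes was -0.02. Of the 16 genes, 12 had overlapping groups, 3 lay wholly lower in knockout and 1 wholly higher, where 5.87% and 3.52% of all tested genes did so.

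The 5 measured genes within 200 kb of Opn1sw all had negative differences. On the Calu side Impdh1, the inosine monophosphate dehydrogenase gene that supplies guanine nucleotides in photoreceptors, was the most abundant neighbour, with 54.4, 64.5 and 77.4 FPKM in knockout and 58.8, 72.7 and 99.7 FPKM in control (log2 difference -0.21 ± 0.27, adjusted p = 0.9996, limma). The groups overlapped. Hilpda, a lipid droplet gene induced by hypoxia, measured 7.93 ± 0.045 FPKM in knockout and 9.31 ± 2.23 FPKM in control (SD, n = 3 each; adjusted p = 0.9996, limma). On the Ccdc136 side Atp6v1f, which encodes a subunit of the vacuolar proton pump, measured 6.22, 4.72 and 8.40 FPKM in knockout and 8.43, 10.8 and 8.59 FPKM in control (log2 difference -0.49 ± 0.24, adjusted p = 0.897, limma). Its knockout values were all below its control values, by a narrow margin for knockout 3. Irf5, an interferon regulatory factor gene, measured 1.19 ± 0.49 and 1.71 ± 0.47 FPKM in knockout and control, and Tnpo3, a nuclear import receptor gene, measured 6.24 ± 0.23 and 6.96 ± 1.34 FPKM. At the edges of the window Zfp800, a zinc finger gene, gave the highest difference (0.47 ± 0.22) and Zc3hc1, a zinc finger gene as well, the lowest (-0.67 ± 0.26, adjusted p = 0.845, limma), both named after their values were seen. Over the 6 libraries r with Opn1sw was 0.91 for Zfp800, above the 0.85 of Ccdc136 and below the 0.93 of Calu, and it was -0.93 for Zc3hc1 and -0.92 for Ahcyl2, an S-adenosylhomocysteine hydrolase-like gene, likewise chosen after its values were seen. The other 13 neighbours had an r between -0.64 and 0.53.

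**Figure D4:**
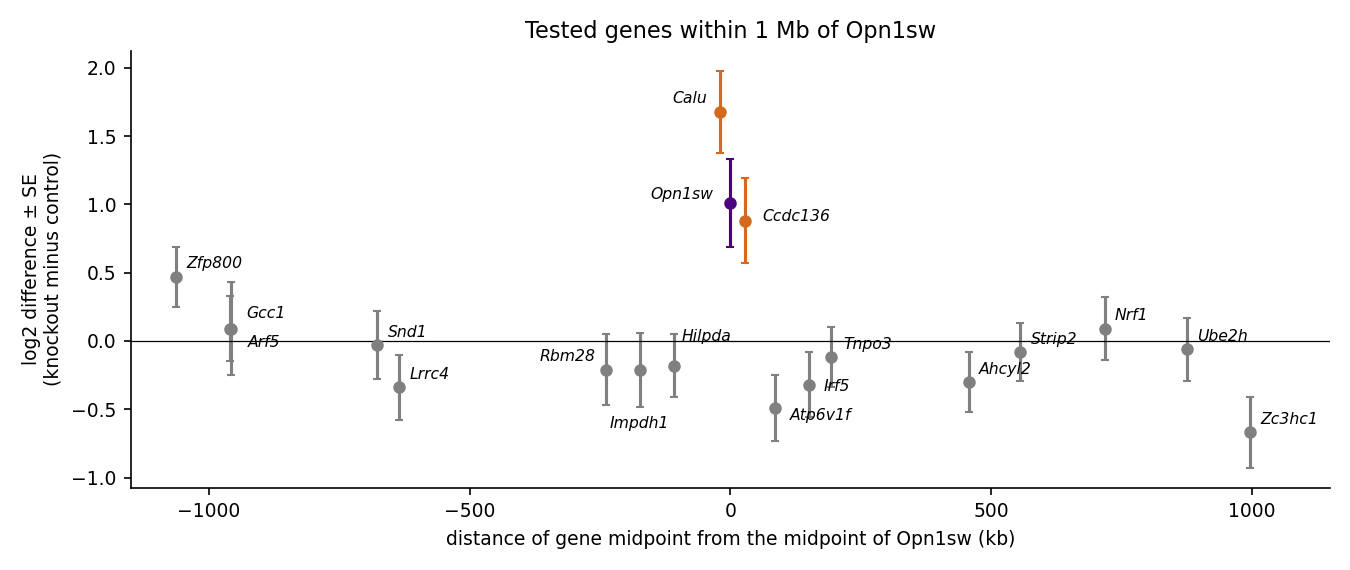
Log2 difference (knockout minus control) ± SE of the 16 tested neighbours (grey), Calu and Ccdc136 (orange) and Opn1sw (purple), against the distance of each gene's midpoint from the midpoint of Opn1sw in kb. The neighbours run from -0.67 to 0.47, and Calu, Opn1sw and Ccdc136 stand at 1.68, 1.01 and 0.88.

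In FPKM as deposited, with no opsin fragments subtracted, Calu was far more abundant than its relatives. The part of the bases shared with Opn1sw in this comparison was not tested. Of the other 4 CREC genes, 3 are in the table and 2 were tested, and none passed in limma or had an unadjusted p under 0.05. Sdf4, which encodes Cab45, a calcium-binding protein of the Golgi, had 10.7, 12.1 and 14.4 FPKM in knockout and 9.69, 15.7 and 15.8 FPKM in control (log2 difference -0.11 ± 0.25, adjusted p = 0.9996, limma). Rcn2, a reticulocalbin gene, had 3.88, 3.56 and 2.82 FPKM in knockout and 3.20, 2.30 and 3.27 FPKM in control (log2 difference 0.17 ± 0.22, adjusted p = 0.9996, limma). The groups overlapped for both. Rcn1, below the level tested, had 1.29, 0.841 and 0.799 FPKM in knockout and 0.303, 0.608 and 1.05 FPKM in control.

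The genes on which calumenin is known to act were also measured. Of 14 genes of the vitamin K cycle and of carboxylated proteins, 5 were tested, and 0 passed in limma or had an unadjusted p under 0.05, with a median log2 difference of -0.04. Ggcx, the gamma-carboxylase, measured 2.39 ± 0.38 FPKM in knockout and 1.65 ± 0.78 FPKM in control, and Vkorc1l1, a vitamin K epoxide reductase and the most abundant of the 5, measured 18.4 ± 4.43 FPKM in knockout and 13.8 ± 2.85 FPKM in control (adjusted p = 0.934 for both, limma). Of 16 genes of calcium channels, pumps and sensors of the endoplasmic reticulum and its refilling, 7 were tested, and 0 passed, with 2 at an unadjusted p under 0.05 (5.49% of all genes reached that). Those 2 encode calcium entry channels. Orai2 measured 0.825 ± 0.151 FPKM in knockout and 1.63 ± 0.47 FPKM in control, and Orai3 measured 0.987 ± 0.431 FPKM in knockout and 2.03 ± 0.75 FPKM in control (adjusted p = 0.897 for both, limma). Orai2 was the 1 gene of the 7 that lay wholly lower in knockout, where 5.87% of all genes did, and 0 lay wholly higher. Tmbim6, the most abundant, measured 46.7 ± 9.43 FPKM in knockout and 51.96 ± 6.71 FPKM in control.

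Genes of the compartment in which calumenin resides did not pass either. Of 21 chaperones of the endoplasmic reticulum, 19 were tested, and 0 passed in limma or had an unadjusted p under 0.05. Their median log2 difference was -0.15, 13 were negative, and 4 lay wholly lower in knockout, where 5.87% of all genes did. Hsp90b1, the most abundant, measured 85.8 ± 9.96 FPKM in knockout and 68.5 ± 18.5 FPKM in control, and Manf and Cnpy3, those of smallest p, measured 4.94 ± 2.43 and 5.45 ± 1.21 FPKM in knockout and 7.64 ± 1.21 and 7.69 ± 0.67 FPKM in control. Of 17 genes for retention in and export from that compartment, 15 were tested, with a median of -0.07, and 0 passed or had an unadjusted p under 0.05. The most abundant, Sar1b, measured 40.02 ± 1.13 FPKM in knockout and 37.2 ± 13.8 FPKM in control, and Sar1a and Kdelr1, those of smallest p, measured 12.5 ± 2.35 and 2.67 ± 1.03 FPKM in knockout and 16.1 ± 1.94 and 3.57 ± 1.05 FPKM in control.

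For Opn1sw, transcription factors and hormone signalling genes that set the choice of cone opsin were listed. Of 22 such genes, 14 were tested, 9 with positive and 5 with negative differences, a median of 0.16 and 0 past the threshold or at an unadjusted p under 0.05 (limma). Nr2f2, an orphan nuclear receptor gene, measured 1.56 ± 1.02 FPKM in knockout and 2.42 ± 0.27 FPKM in control. Rora, which encodes a receptor of the AGGTCA motif, measured 30.6 ± 1.32 FPKM in knockout and 23.8 ± 4.40 FPKM in control (log2 difference 0.37 ± 0.23, adjusted p = 0.929, limma). Rora and Nr2e3, 2 of the 14, lay wholly higher in knockout and 0 wholly lower, where 3.52% and 5.87% of all genes did so. Crx, the photoreceptor homeobox gene and the most abundant of the list, measured 89.7 ± 23.3 FPKM in knockout and 107 ± 24.6 FPKM in control. Of 19 other cone phototransduction genes, all tested, 0 passed and 2 had an unadjusted p under 0.05, with a median of -0.07. These were Slc24a2, a cone cation exchanger gene, at 31.2 ± 4.15 FPKM in knockout and 20.6 ± 3.03 FPKM in control, and Guca1a, a guanylate cyclase activator gene, at 254 ± 112 FPKM in knockout and 414 ± 94.1 FPKM in control. Slc24a2 was the 1 gene of the 19 that lay wholly higher in knockout, and 0 lay wholly lower. Gngt2, a cone transducin subunit and the most abundant, measured 1002 ± 162 FPKM in knockout and 1211 ± 489 FPKM in control.

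The sort kept transcripts of other cells. The 19 cone genes summed to between 4456 and 5708 FPKM in knockout and between 4182 and 6907 FPKM in control libraries. The 15 rod markers summed to between 2654 and 3740 FPKM in knockout and between 3095 and 3806 FPKM in control. All 15 were tested and 0 passed in limma or had an unadjusted p under 0.05, and 3 lay wholly higher in knockout, where 3.52% of all genes did. Pde6g, a rod phosphodiesterase subunit and the most abundant, measured 676 ± 266 FPKM in knockout and 845 ± 113 FPKM in control. Reep6 and Nr2e3, those of smallest p and both among the 3, measured 158 ± 18.7 and 7.97 ± 2.22 FPKM in knockout and 112 ± 19.5 and 6.01 ± 0.54 FPKM in control.

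For 7 of 9 Müller glia markers the sums lay between 101 and 112 FPKM in knockout and between 91.8 and 120 FPKM in control. Car2, a carbonic anhydrase gene, was the largest part, with 60.8 ± 6.67 FPKM in knockout and 54.3 ± 10.6 FPKM in control. Apoe and Clu, both apolipoprotein genes, lay wholly lower in knockout. Apoe had 2.19, 3.002 and 1.78 FPKM in knockout and 4.64, 3.70 and 3.86 FPKM in control (log2 difference -0.62 ± 0.22, unadjusted p = 0.0158, adjusted p = 0.771, limma). Clu had 21.1, 15.4 and 19.4 FPKM in knockout and 26.1, 24.8 and 27.1 FPKM in control (adjusted p = 0.897, limma). For 8 of 9 bipolar markers the sums lay between 55.7 and 59.9 FPKM in knockout and between 49.4 and 72.4 FPKM in control, with Lrtm1 the largest part (32.1 ± 3.52 and 28.3 ± 3.77 FPKM). Gng13, a G protein subunit of bipolar cells, lay wholly lower in knockout, with 2.16, 1.17 and 2.05 FPKM against 6.31, 2.96 and 3.56 FPKM in control (log2 difference -0.89 ± 0.27, unadjusted p = 0.00617, adjusted p = 0.605, limma). Pcp2 measured 3.07 ± 1.38 FPKM in knockout and 4.37 ± 1.49 FPKM in control. None of the 7 Müller glia and 6 bipolar markers tested passed in limma, and Apoe and Gng13 were those with an unadjusted p under 0.05. Of the 7 and the 6, 2 and 1 lay wholly lower in knockout and 0 wholly higher, where 5.87% and 3.52% of all genes did so.

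The table held 3 ganglion cell markers, 1 marker each for amacrine, horizontal, microglial, vascular and red blood cells, and 0 for pigment epithelium. Ganglion cell markers summed to 2.08 to 2.32 FPKM in knockout and to 2.63 to 23.9 FPKM in control, the highest value resting on Stmn2 at 21.1 FPKM in control 1, and Nefl measured 1.13 ± 0.24 FPKM in knockout and 1.42 ± 0.70 FPKM in control. Groups overlapped for Slc6a9 (amacrine), Prox1 (horizontal) and C1qb (microglial), at 5.28 ± 1.24, 0.878 ± 0.179 and 0.158 ± 0.101 FPKM in knockout and 6.63 ± 1.89, 1.42 ± 0.66 and 0.657 ± 0.719 FPKM in control. Pecam1 (vascular) and Alas2 (red blood cell) lay wholly higher in knockout, at 1.26 ± 0.04 and 4.45 ± 1.21 FPKM, against 0.689 ± 0.112 and 2.44 ± 0.83 FPKM in control. Alas2 had an adjusted p of 0.865 (limma, unadjusted p = 0.0247), and Pecam1 was below the level tested. Without control 1 the log2 differences were 1.51 for Calu and 0.68 for Ccdc136. Whether cell makeup has a part in the levels of Calu and Ccdc136 was not tested.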

How the data were processed

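Sorted cones of 6 samples, 3 knockout and 3 control, were sequenced as strand-directional poly(A) libraries; per the labels' protocols each took 100 ng of RNA. The deposited values are FPKM, with 1 column for each library. Tools listed without roles in the submitters' processing notes are DESeq2, HTSeq, TopHat2 (2.1.0) and Cufflinks (2.2.1), with build mm10. How fragments were counted, whether by strand and on which annotation, is not given in these sources. The table holds 9720 protein-coding genes with no value under 0.1 FPKM. FPKM keep no read total, so the depth is unknown, and only the spread between libraries shows the precision.

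Genotype labels set the groups, and titles gave the replicate numbers. Deviations of same-numbered libraries from their group means had correlations of -0.118, -0.085 and -0.034 across genes, so the numbers were not used as pairs. Gene IDs were matched to GENCODE vM21 (9702 of 9720). Values were taken as log2(FPKM + 1), a mean of 1 FPKM or more was required (8627 genes passed and 1093 did not), and knockout was compared with control in limma 3.58.1 (R 4.3.3, variance trend, two-sided, Benjamini-Hochberg over all tested genes, threshold 0.05). The code of the fit was run on simulated data with independent noise for each gene. Those data held no factor common to a library, so nothing about the results is read from that run. Correlations, shares and motif searches used Python 3.11.15, pandas 2.3.3, numpy 2.4.6 and scipy 1.17.1, and plots matplotlib 3.10.9. Promoters came from RefSeq (GRCm38.p6).

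The members and gene lists were chosen with earlier results of these data known. Named genes were the members, both cone opsin genes, Arntl, neighbours within 200 kb, tested CREC genes, the 5 genes most like each member, and of each list any called gene, the 2 of smallest p and the most abundant. Alternatives covered the pseudocount, the filter, scaling, variance modelling, array weights, the replicate block and each library left out.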

Additional observations from a re-analysis of the deposited data

How the results depend on the processing

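The log2 differences of Calu, Ccdc136 and Opn1sw kept their sign and stayed within the spread between replicates under all 16 alternatives, from 1.51 to 1.88, from 0.65 to 1.04 and from 0.82 to 1.18. No neighbour and no list gene passed under any of the 16 (limma). Over all genes, 23 passed with array weights, 11 higher and 12 lower, against 9 (4 and 5), and with the replicate block 6 passed, of which 1 was higher. With each library left out in turn, 6 to 13 passed, 1 to 5 higher and 5 to 8 lower, the most without control 1. Correlations over libraries ranged from 0.91 to 0.97 for Calu and Opn1sw, from 0.68 to 0.97 for Ccdc136 and Opn1sw and from 0.85 to 0.97 for Calu and Ccdc136 with each library left out. With the replicate block they were 0.98, 0.91 and 0.91 in the same order. That setting removes the mean of each replicate number and leaves the differences between the groups. It is thus another measure, and since the numbers were not used as pairs nothing is read from it. The correlation of deviations from group means with Opn1sw depended on the scaling. For Calu it was 0.08 with median-ratio scaling, -0.41 with equal sums and -0.02 with equal sums without Gm17364, and from -0.02 to 0.93 with each library left out. For Ccdc136 it was -0.09, -0.66 and -0.29 in the same order, and from -0.45 to 0.98. The scaling without Gm17364, a gene model that held 10.03% of the sum in control 3, was chosen after seeing the data. The causes were not tested. With 3 libraries a group and no depth, small differences were not detectable.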
